A study of Homo sapiens with 4 samples.

Results

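The transcripts of chemokines and interleukins known from the secretory phenotype of senescent cells were measured by RNA-seq in A549 cells after knockdown of the long noncoding RNA USP2-AS1. The set of 10 genes was chosen by symbol. It holds the CXC chemokines CXCL1, CXCL2, CXCL3, CXCL5 and CXCL8 and the CC chemokine CCL20. The rest are the interleukin genes IL6, IL1A and IL1B and the cytokine gene LIF. Of these 10 genes, 7 had a row in the table of 6828 genes, and IL1A, IL1B and LIF had no row in the table used here. The table lists only genes that passed the adjusted p-value threshold of the authors' own test, so that a listed gene differs between the groups is fixed by the listing, and so is a minimum size of the difference, which is larger for genes with few reads. The direction is not fixed by it.

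A549 is a human lung adenocarcinoma cell line of epithelial type. Cells were infected with a lentivirus for a control shRNA (shctrl, 2 libraries) or for an shRNA against USP2-AS1 (shUSP2-AS1, 2 libraries), both in the PLKO.1 vector, selected with puromycin, and harvested 72 h after infection. The comparison addresses which genes depend on USP2-AS1. Which of the study's USP2-AS1 shRNAs was used for these libraries was not given in the sources used here, and no second shRNA and no re-expression of USP2-AS1 entered the comparison, so an effect of the knockdown and one of this hairpin cannot be told apart. The study describes the libraries of a group as biological replicates, all from the same cell line.

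Senescent cells stop dividing and release a mixture of chemokines, interleukins, growth factors and proteases. The chemokines CXCL1, CXCL2, CXCL3, CXCL5 and CXCL8 share a short amino acid motif (Glu-Leu-Arg) before their CXC cysteines and attract neutrophils through the receptor CXCR2. CCL20 attracts CCR6-bearing lymphocytes and dendritic cells, and IL6 signals through IL6R and the shared receptor chain gp130. NF-kappaB, C/EBP-beta and AP-1 are the transcription factors best known to drive these genes, and the IL-1 cytokines act upstream of NF-kappaB.

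The 100 bases directly upstream of the RefSeq start of each listed member (GRCh38.p14) are shown because each holds a match to the same short NF-kappaB letters. Capitals mark matches to GGNNNTTCC on either strand, the core of an NF-kappaB (kappa B) site. Each sequence is given 5′ to 3′ in the direction of transcription.

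CXCL1 (chr4:73869293-73869392, plus strand): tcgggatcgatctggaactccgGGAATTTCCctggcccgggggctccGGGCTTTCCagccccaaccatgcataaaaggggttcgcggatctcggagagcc
CXCL2 (chr4:74099196-74099295, minus strand): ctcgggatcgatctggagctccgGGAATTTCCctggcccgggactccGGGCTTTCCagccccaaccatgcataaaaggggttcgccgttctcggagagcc
CXCL3 (chr4:74038690-74038789, minus strand): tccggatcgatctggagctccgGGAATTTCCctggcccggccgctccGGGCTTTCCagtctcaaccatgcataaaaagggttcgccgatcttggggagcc
CXCL5 (chr4:73998678-73998777, minus strand): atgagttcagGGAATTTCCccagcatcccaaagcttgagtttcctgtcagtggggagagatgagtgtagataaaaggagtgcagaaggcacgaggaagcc
CXCL8 (chr4:73740469-73740568, plus strand): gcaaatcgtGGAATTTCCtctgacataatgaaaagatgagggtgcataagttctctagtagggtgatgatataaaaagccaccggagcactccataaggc
CCL20 (chr2:227813742-227813841, plus strand): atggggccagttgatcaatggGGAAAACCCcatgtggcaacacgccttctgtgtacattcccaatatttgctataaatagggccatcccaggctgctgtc
IL6 (chr7:22727100-22727199, plus strand): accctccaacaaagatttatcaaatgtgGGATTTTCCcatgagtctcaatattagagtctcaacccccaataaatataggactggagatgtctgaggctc

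All 7 listed members held GGNNNTTCC in the 250 bases upstream of their start, and each had a match within the 100 bases printed. The same letters were found in 17.1% of the 35116 promoters in the RefSeq table. The 5 CXC genes shared the identical match GGAATTTCC, which began 77 to 91 bases before the start, and CXCL1, CXCL2 and CXCL3 each held GGGCTTTCC 53 bases before the start as well. The match in CCL20 lay on the opposite strand, and that in IL6 read GGATTTTCC. No match was found in the promoters of IL1A and IL1B, and LIF had no entry in the promoter table. The AP-1 letters TGANTCA occurred in CXCL8 and IL1A, against 6.57% of all promoters, and the C/EBP letters TTGCNNAA in CXCL2, IL6 and IL1B, against 9.05%. A match is a description of the letters and not evidence that a factor was bound in these cells.

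The 5 CXC genes lie within 359 kb of chromosome 4 (hg38), in the order CXCL8, CXCL1, CXCL5, CXCL3 and CXCL2. CXCL1, CXCL2 and CXCL3 are close copies of each other. Their coding sequences in GENCODE were 93.5% identical between CXCL1 and CXCL2, 90.7% between CXCL1 and CXCL3 and 94.4% between CXCL2 and CXCL3, and the printed upstream sequences were 89.1% to 94.1% identical. CXCL5 and CXCL8 were further apart, with coding identities of 48.3% to 61.2% to the other members and to each other. Because near-identical copies can exchange reads, the overlap was measured. Of all stretches of 50 bases in the main transcript, 5.33% in CXCL1, 10.1% in CXCL2 and 5.26% in CXCL3 occurred in a transcript of another gene, in each case one of the other two. The share was 1.17% in CXCL5, all in GLYR1, and 0 in the other members, and no stretch of 100 bases in any of the 7 main transcripts did.

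The libraries held 10772788 to 14120472 reads on the genes of the table, and 1 read corresponded to a normalized count of 0.880 to 1.10. USP2-AS1 itself (chr11:119364359-119526664) was at normalized counts of 23.2 and 24.2 in shctrl and at 2.10 and 6.16 in shUSP2-AS1, from 24, 22, 2 and 7 reads. It was 5.48-fold lower in shUSP2-AS1 by the pooled reads (95% exact counting interval 2.65 to 12.7, which covers counting error only). Its limma log2 fold change was -2.39, and it was -1.78 without shUSP2-AS1 replicate 1 and -2.99 without shUSP2-AS1 replicate 2. Strand-specific counting was not stated, so reads of the overlapping gene USP2 cannot be told apart from it. A549 was listed as epithelial, and 4 of the 6 epithelial markers had a row, with KRT7 between 38282 and 57568 in the 4 libraries. EPCAM and CDH1 had no row in the table used here.

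All 7 listed members were lower in shUSP2-AS1, as were 3362 of the 6812 genes tested, and all 7 were called lower. The call required a Benjamini-Hochberg adjusted p below 0.05 in limma over the 6812 genes tested and an at least 2-fold change on the log2(normalized count + 1) scale. With the same rule, 13.5% of the genes tested were called lower and 16.1% were called higher. That 0 of the 7 were called higher follows from their direction. The median log2 fold change of the 7 listed members was -1.79, while the median over all genes tested was 0.19. Fewer cells that make a transcript and less transcript per cell cannot be told apart in these bulk libraries. The study reports the opposite direction for the secreted proteins of IL6 and CXCL8. Their extracellular levels were raised after USP2-AS1 knockdown in both A549 and HCT116 cells, with each USP2-AS1 shRNA used there. Those proteins were measured later after infection than the transcripts in these libraries. How the lower transcripts relate to the raised proteins was not tested.

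**Figure D1:**
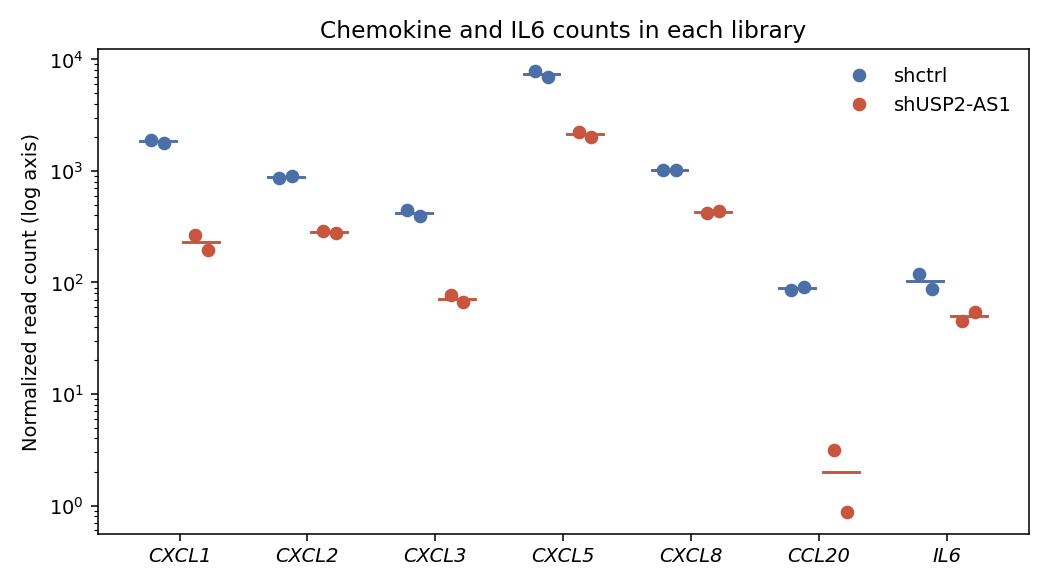
Normalized read count (log axis) of the 7 listed members in each library. Points are the 2 libraries of a group and bars their mean. The gap between the groups is smallest in IL6, with 119.8 and 87.9 in shctrl against 45.2 and 54.6 in shUSP2-AS1. It is largest in CCL20, with 86.0 and 91.2 against 3.15 and 0.88.

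CXCL1 (chr4:73869393-73871308, plus strand), also known as GRO-alpha, was the most reduced of the 5 CXC chemokines. Its normalized counts were 1897 and 1792 in shctrl and 269 and 196 in shUSP2-AS1. The mean fell from 1845 ± 73.8 to 233 ± 51.5 (SD, n = 2), which is 7.92-fold lower. The limma log2 fold change was -2.998 ± 0.11 (SE, adjusted p = 1.14e-13), and 17 of the 6812 genes tested had a lower value. In relation to their mean, the knockdown libraries differed from each other more in CXCL1 than in the other CXC genes, and both stayed far below the controls.

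CXCL3 (chr4:74036589-74038807, minus strand), the least abundant of the CXC members, followed. It was at 446 and 398 in shctrl and at 76.8 and 66.9 in shUSP2-AS1. This was a 5.88-fold reduction of the mean, with a log2 fold change of -2.54 ± 0.14 (SE, limma adjusted p = 2.12e-11). CXCL2 (chr4:74097040-74099196, minus strand), its nearest relative by coding sequence among the 5, was at 858 and 903 in shctrl and at 289 and 280.0 in shUSP2-AS1. CXCL2 was thus reduced 3.09-fold, with a log2 fold change of -1.63 ± 0.09 (SE, limma adjusted p = 1.27e-11). The libraries within each group were close for both genes compared with the distance between the groups.

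CXCL5 (chr4:73995642-73998677, minus strand), known from epithelial cells as a neutrophil attractant, had the highest counts of the set. Its normalized counts were 7787 and 6893 in shctrl and 2217 and 2035 in shUSP2-AS1. The mean fell 3.45-fold, from 7340 ± 632 to 2126 ± 129 (SD, n = 2), with a log2 fold change of -1.79 ± 0.06 (SE, limma adjusted p = 5.43e-14). Not scaled by gene length, the CXCL5 counts in shUSP2-AS1 were above those of every other member in either group.

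CXCL8 (chr4:73740541-73743716, plus strand) encodes interleukin-8 and comes first in the cluster by coordinate. It was at 1013 and 1009.9 in shctrl and at 423 and 438 in shUSP2-AS1, with the closest controls of the set. The mean fell 2.35-fold and the log2 fold change was -1.23 ± 0.08 (SE, limma adjusted p = 1.07e-10). This was the smallest reduction among the CXC members, and it concerns the transcript and not the secreted protein. When the difference was tested against a 2-fold change, rather than against no change, CXCL8 still passed (limma adjusted p = 0.0269).

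CCL20, the ligand of CCR6 (chr2:227805739-227817564), had the most negative log2 fold change of all 6812 genes tested. It passed the filter on low values only through shctrl, where it was high. When at least 10 reads were required in every library, CCL20 was not tested. It had 89 and 83 reads in shctrl and 3 and 1 reads in shUSP2-AS1, which are normalized counts of 86.0 and 91.2 against 3.15 and 0.88. The pooled ratio was 46.1-fold lower in shUSP2-AS1, with a 95% exact counting interval of 17.7 to 171 that covers counting error only. The log2 fold change was -5.002 ± 0.47 (SE, limma adjusted p = 2.43e-08), and on so few reads its size depends on the constant added before the logarithm. Of the 100 listed genes nearest to CCL20 in mean count, 0 changed by less than 2-fold, so at this count the listing itself set a call. In the same 100, 0 had a larger limma log2 fold change in size. The direction does not rest on 1 library, since both shUSP2-AS1 libraries were near 0 and both controls were above 80 reads.

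IL6, the interleukin that signals through gp130 (chr7:22725884-22732002), had the weakest change. Its normalized counts were 119.8 and 87.9 in shctrl and 45.2 and 54.6 in shUSP2-AS1, and the controls differed widely. The mean fell 2.08-fold, from 103.9 ± 22.6 to 49.9 ± 6.62 (SD, n = 2), with a log2 fold change of -1.03 ± 0.22 (SE, limma adjusted p = 0.000254). Its distance from the 2-fold threshold was smaller than its standard error. Of the 100 listed genes nearest to IL6 in mean count, only 21 changed by less than 2-fold and 77 had a larger log2 fold change in size, so its size was near the minimum that the listing sets at this count. The call was lost without shctrl replicate 1 (log2 fold change -0.81), without shUSP2-AS1 replicate 1 (-0.90) and with upper quartile scaling (-0.97), in each case with IL6 still lower in shUSP2-AS1.

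**Figure D2:**
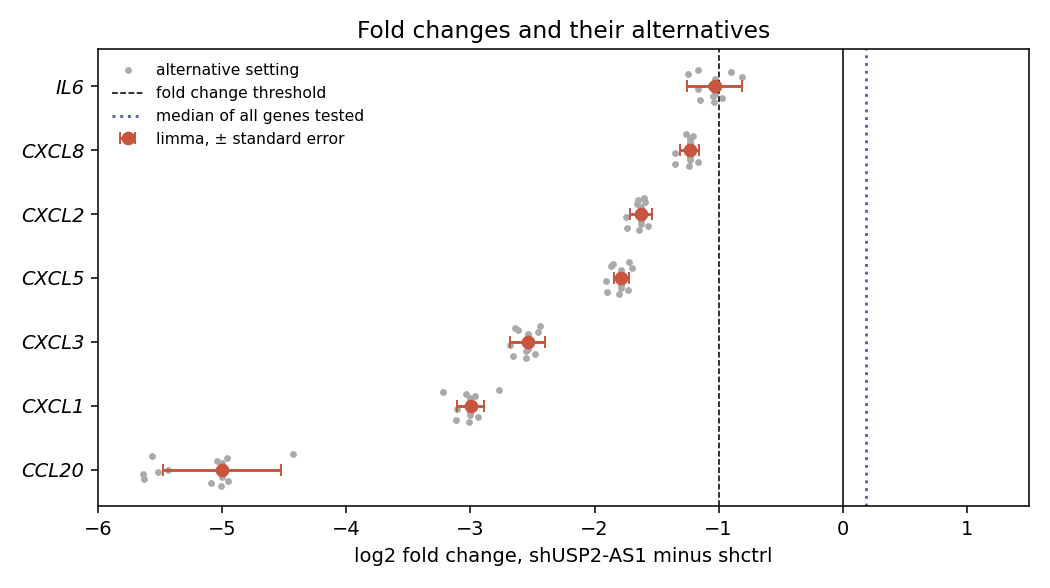
Log2 fold change (shUSP2-AS1 minus shctrl) of each listed member. Red points with bars are the limma estimates ± SE, grey points are the same gene under the alternative settings, the dashed line is the 2-fold threshold and the dotted line the median of all genes tested (0.19). Only the IL6 points reach across the threshold.

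The order of the reductions was CCL20, CXCL1, CXCL3, CXCL5, CXCL2, CXCL8 and IL6. Neighbours in this order were set against the combined SE of their log2 fold changes. CXCL5 and CXCL2 differed by 0.16 with a combined SE of 0.106, and CXCL8 and IL6 by 0.20 with a combined SE of 0.233, so these pairs were not separated by their errors. CXCL1 and CXCL3 differed by 0.459 (combined SE 0.178), and the other neighbouring pairs by more than 3 combined SE. The estimates of 2 genes in the same libraries are not fully independent, and this ordering is a description.

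**Figure D3:**
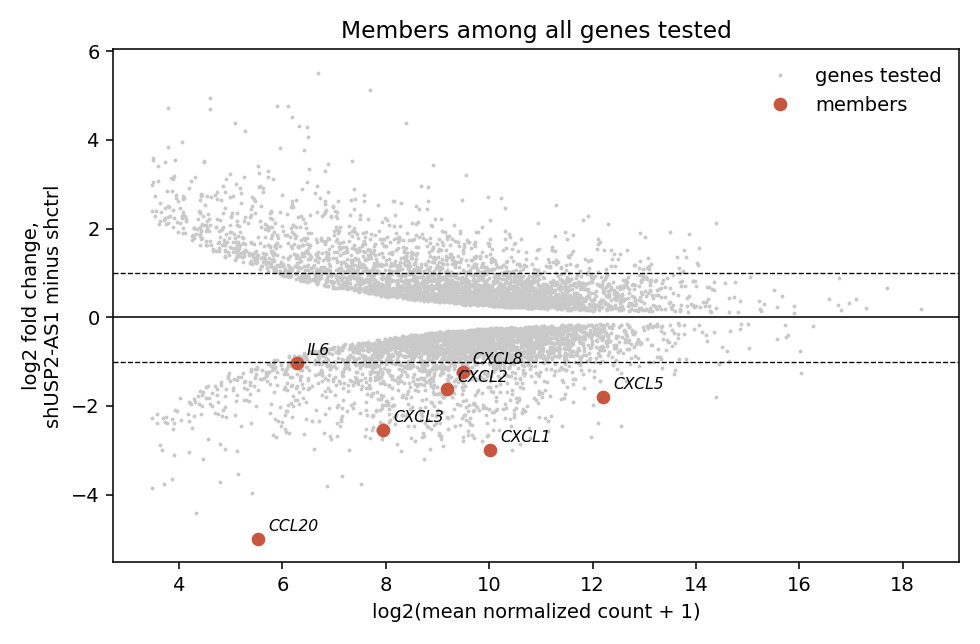
Log2 fold change (shUSP2-AS1 minus shctrl) against log2(mean normalized count + 1) for the 6812 genes tested. Members are red, and dashed lines mark a 2-fold change in each direction. The empty band around 0 comes from the selection of the listed genes. CCL20 is the lowest point of the plot, and IL6 lies at the edge of the band among genes of similar count.

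Scaled by the gene length in the table, the levels of the members in shctrl ran from CXCL5 to IL6. In normalized counts per kilobase, CXCL5 was at 3013 ± 260 (SD, n = 2 here and in the following values), CXCL1 at 1354 ± 54.2, CXCL2 at 630.0 ± 22.9, CXCL8 at 452 ± 0.852 and CXCL3 at 190.2 ± 15.5. CCL20 at 55.6 ± 2.31 and IL6 at 50.2 ± 10.9 did not differ beyond their spread. In shUSP2-AS1 the order changed, because the larger fall of CXCL1 brought it from second place to the level of CXCL2 and CXCL8. CXCL5 was at 873 ± 52.9, CXCL2 at 204 ± 4.66, CXCL8 at 192 ± 4.68 and CXCL1 at 171 ± 37.8 per kilobase. The CXCL1 libraries (198 and 144) lay on either side of the CXCL8 libraries (189 and 195), so these neighbours were not separated. CXCL3 at 32.4 ± 3.14, IL6 at 24.1 ± 3.20 and CCL20 at 1.27 ± 1.01 remained the lowest.

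The summed length-scaled count of the 5 CXC chemokines was 5857 and 5422 per kilobase in shctrl and 1538 and 1405 in shUSP2-AS1, a 3.83-fold reduction. The make-up of this sum moved as well. CXCL1 made up 23.8% and 24.3% of it in shctrl and 12.9% and 10.3% in shUSP2-AS1. CXCL8 made up 7.72% and 8.32% in shctrl and 12.3% and 13.9% in shUSP2-AS1. CXCL5 contributed more than any other in all 4 libraries, with 52.2% to 59.4%. Shares of a sum move together by construction, and no test was made of them.

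**Figure D4:**
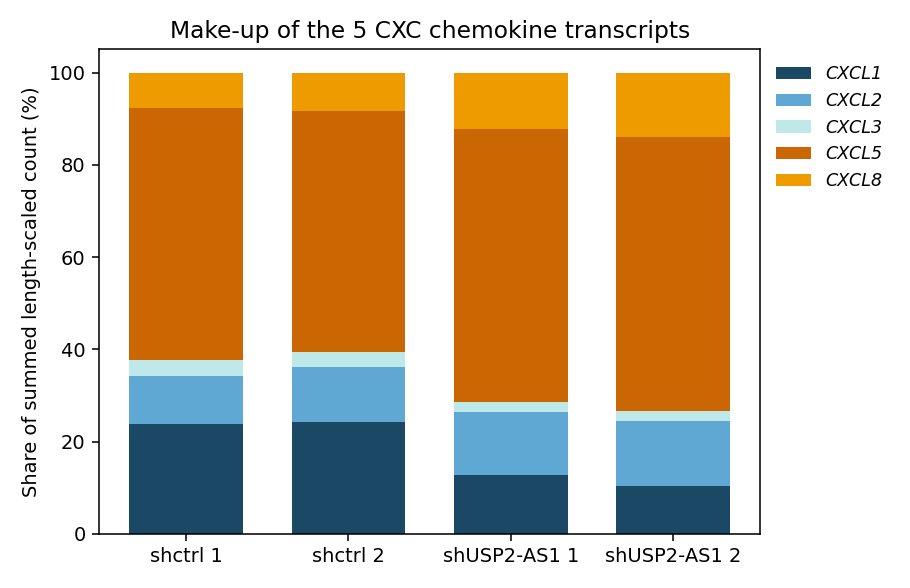
Share (%) of the summed length-scaled counts of the 5 CXC chemokines in each library. Each bar sums to 100% and shows 1 library. The CXCL1 share is smaller in both shUSP2-AS1 libraries (12.9% and 10.3%) than in both shctrl libraries (23.8% and 24.3%), and CXCL5 holds the largest share throughout.

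A plain ratio between genes within a library does not depend on how libraries are scaled. The ratios here were taken after 1 was added to each normalized count, so for them this holds only approximately. Relative to CXCL8 in the same library, CXCL1 was at log2 ratios of 0.90 and 0.83 in shctrl and -0.65 and -1.15 in shUSP2-AS1. CXCL3 went from -1.18 and -1.34 to -2.45 and -2.69. CXCL2 moved least, from -0.24 and -0.16 to -0.55 and -0.64, and CXCL5 from 2.94 and 2.77 to 2.39 and 2.21. CXCL8 had the smallest fall of the CXC genes, so the lower ratios of these 4 genes restate the fold changes above. The ratios are a description and were not tested.

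From CXCL8 to CXCL2 GENCODE places 10 protein-coding genes, of which the 5 members had a row. CXCL6, PF4V1, PF4 and PPBP, the other chemokines of the cluster, had no row in the table used here. Of the 9 protein-coding genes that reach into the 500 kb on either side, ANKRD17 and EREG had a row. EREG, a ligand of the EGF receptor and itself a secreted factor of senescent cells, was at 1792 and 1931 in shctrl and at 1272 and 1418 in shUSP2-AS1 (log2 fold change -0.47 ± 0.07, SE). ANKRD17, an ankyrin repeat protein gene on the other side of the cluster, had a log2 fold change of -0.51 ± 0.07 (SE). Neither neighbour reached the 2-fold threshold, and their values were smaller in size than those of all 5 CXC members.

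The other genes of these pathways were read from 10 lists with 198 symbols, of which 86 had a row and were tested. Since 6811 of all 6812 genes tested had an adjusted p below 0.05, a p below 0.05 in these lists comes from the listing. Of the 86, 7 were called lower and 17 were called higher, beside 13.5% and 16.1% of all genes tested. These shares are the background for the counts of called genes in each list and marker set below. For counts of direction, the background is 3362 genes lower and 3450 higher among the 6812 tested. The median log2 fold change of the 86 was 0.41, against 0.19 over all genes tested. The lists were chosen with earlier results of these data known. Among 26 other chemokines only CXCL16, a transmembrane chemokine that binds CXCR6, had a row. CXCL16 was higher at 528 and 569 in shUSP2-AS1 than at 349 and 292 in shctrl, but its log2 fold change of 0.78 was under the threshold.

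Of 28 other interleukins and colony-stimulating factors 6 had a row, with 2 called lower and 1 called higher. CSF3, which encodes the neutrophil growth factor G-CSF, had 27 and 18 reads in shctrl and 2 and 0 in shUSP2-AS1, a pooled ratio 24.1-fold lower with a 95% exact counting interval of 6.31 to 205. IL32, a proinflammatory cytokine gene, fell from 449 and 411 to 155 and 186 (log2 fold change -1.34 ± 0.12, SE). IL33, an alarmin of the IL-1 family, had 0 and 4 reads in shctrl and 26 and 28 in shUSP2-AS1. This was a pooled ratio 12.6-fold higher (95% exact counting interval 4.64 to 47.8). The intervals of CSF3 and IL33 cover counting error only. Both CSF3 and IL33 passed the filter on low values through the group in which they were high. The log2 fold change of CSF3 was -4.57 without shUSP2-AS1 replicate 1 and -2.93 without shUSP2-AS1 replicate 2, and that of IL33 was 2.32 without shctrl replicate 1 and 4.75 without shctrl replicate 2. CSF1, the macrophage growth factor gene, IL15 and IL18 did not reach the threshold, with log2 fold changes of -0.37, 0.54 and 0.30.

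Of 11 receptors and decoys 4 had a row, all 4 with a limma adjusted p below 0.05, and 1 of them also reached the fold threshold. This was IL6R, the IL-6 binding chain, which was called higher, with 267 and 271 in shctrl and 726 and 650 in shUSP2-AS1 (log2 fold change 1.35 ± 0.09, SE). IL6ST, which encodes gp130, was at 2423 and 2657 in shctrl and at 1316 and 1241 in shUSP2-AS1, and its log2 fold change of -0.99 ± 0.06 (SE) lay just under the threshold. IL6ST was called lower with TMM or RLE scaling, in DESeq2 with its own size factors (-1.11), without shctrl replicate 1 (-1.06) and without shUSP2-AS1 replicate 1 (-1.03). The chemokine receptors CXCR1, CXCR2 and CCR6 had no row in the table used here. Downstream of gp130, 7 of 12 genes had a row and SOCS1, a feedback inhibitor of JAK kinases, was called higher, from 12.6 and 10.99 to 43.1 and 37.0 (log2 fold change 1.68 ± 0.36, SE). STAT3, the main transcription factor of this pathway, had a log2 fold change of 0.55, JAK1 of -0.15 and OSMR of -0.52, none of them called.

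IL1A and IL1B had no row, but 8 of 20 genes of IL-1 processing and signalling did, with 3 called higher and 0 called lower by limma, edgeR or DESeq2. All 8 had an unadjusted p below 0.05, and 2 of them were lower. NLRP1, an inflammasome sensor, rose from 12.6 and 8.79 to 89.4 and 81.9 (log2 fold change 2.91 ± 0.31, SE). CASP4, an inflammatory caspase, rose from 61.8 and 83.5 to 247 and 230 (log2 fold change 1.72 ± 0.17, SE), and PELI1, a ubiquitin ligase of the IL-1 receptor pathway, had a log2 fold change of 1.11 ± 0.21 (SE). The call of PELI1 was lost with RLE scaling (0.99), without shctrl replicate 1 (0.95) and without shUSP2-AS1 replicate 1 (0.98). MYD88, the adaptor of IL-1 receptors, was at 836 and 771 in shctrl and at 1393 and 1349 in shUSP2-AS1, under the threshold at a log2 fold change of 0.77.

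Of 16 genes for NF-kappaB subunits and feedback inhibitors 8 had a row, and 0 were called in either direction by limma, edgeR or DESeq2. All 8 had an unadjusted and an adjusted p below 0.05, as nearly every listed gene had. Their log2 fold changes lay between -0.51 and 0.53. RELA, the activating subunit, was at 1588 and 1707 in shctrl and at 1332 and 1387 in shUSP2-AS1 (log2 fold change -0.28), and NFKB2 was at 2225 and 2128 against 2894 and 2986 (0.43). Transcript levels do not measure the activity of these factors. Among 13 AP-1 and C/EBP genes 11 had a row, with 3 called higher and 0 called lower by limma, edgeR or DESeq2. All 11 had an unadjusted p below 0.05, and 2 of them were lower. ATF3, a stress-induced factor, rose from 239 and 246 to 997 and 1065 (log2 fold change 2.08 ± 0.09, SE). FOSB and JUNB, AP-1 subunits, rose with log2 fold changes of 1.43 ± 0.05 and 1.21 ± 0.05 (SE). CEBPB, the C/EBP factor best known from the secretory phenotype, had a log2 fold change of 0.32 and was not called.

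Of 17 symbols for other regulators of the secretory phenotype 10 had a row, with 3 called lower and 0 called higher by limma, edgeR or DESeq2. All 10 had an unadjusted p below 0.05, and 9 of them were lower. HMGB2, a chromatin protein, was at 981 and 1031 in shctrl and at 159 and 191 in shUSP2-AS1 (log2 fold change -2.52 ± 0.10, SE). HMGB1, its relative, fell with a log2 fold change of -1.23 ± 0.05 (SE), and CGAS, the sensor of cytosolic DNA, with -1.02 ± 0.15 (SE). The call of CGAS was lost with upper quartile scaling (-0.96) and without shUSP2-AS1 replicate 1 (-0.84). Of 12 AU-rich element mRNA decay factors 10 had a row, and 0 were called in either direction by limma or edgeR, with all 10 at an unadjusted p below 0.05. DESeq2 with its own size factors called 1 of them lower. ZFP36, which destabilizes cytokine mRNAs, had a log2 fold change of 0.91, and HNRNPD, another protein that binds AU-rich elements, of -0.88.

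Of 43 other secreted factors of senescent cells 21 had a row, with 8 called higher and 2 called lower, beside 16.1% and 13.5% of all genes tested. Another 11 were not called, and the median log2 fold change of the 21 was 0.64. DESeq2 with its own size factors called 7 higher, without TIMP2 (0.98). FAS, the death receptor gene, rose 3.82-fold, IGFBP7, an insulin-like growth factor binding protein, 2.88-fold, and MMP2, a matrix metalloproteinase, 2.68-fold. SERPINE2, SPP1, TIMP2 and TNFRSF10C were also called higher. ICAM1, the adhesion molecule that leukocytes bind, was called lower, from 256 and 238 to 57.8 and 54.6 (log2 fold change -2.12 ± 0.16, SE), as was IGFBP3 with -1.10 ± 0.05 (SE).

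**Figure D5:**
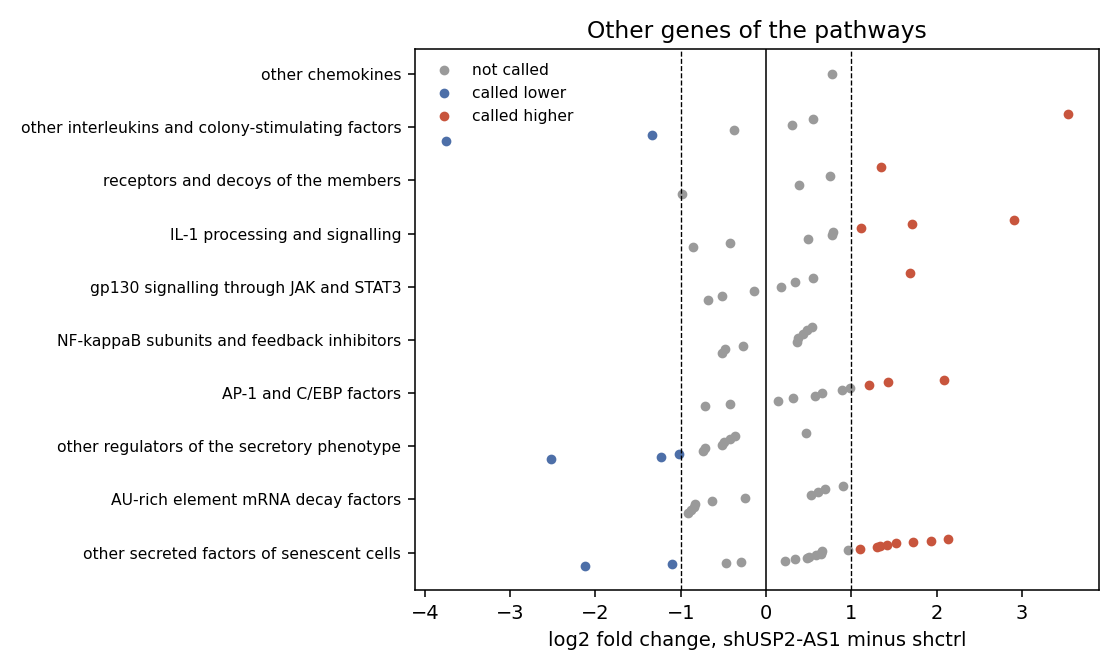
Log2 fold change (shUSP2-AS1 minus shctrl) of the 86 tested genes in the 10 pathway lists, 1 point per gene. Blue points were called lower, red points higher and grey points neither, and dashed lines mark a 2-fold change. The NF-kappaB and AU-rich element lists lie wholly inside the dashed lines, and the list of other secreted factors has 8 red points and 2 blue ones.

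Markers of other cell types were read for the same libraries. Of 8 fibroblast markers 3 had a row (COL1A1, LUM and THY1) and all 3 were called higher by limma and edgeR, with summed normalized counts of 439 and 482 in shctrl and 1017 and 1165 in shUSP2-AS1. LUM had 2 and 1 reads in shctrl and 24 and 18 in shUSP2-AS1, and passed the filter on low values only through shUSP2-AS1. THY1 (chr11:119415476-119424985) lies within the coordinates of USP2-AS1. COL1A1 was not called with RLE scaling (0.93), in DESeq2 with its own size factors (0.93), without shctrl replicate 1 (0.96) and without shUSP2-AS1 replicate 2 (0.94). Of 9 leukocyte markers only ITGAM had a row, at 78.3 and 105.5 in shctrl and 270.3 and 240.4 in shUSP2-AS1 (called higher), while PTPRC, CD3E and LYZ had none. None of the 5 endothelial markers had a row. Of the epithelial keratins KRT18 was called lower (log2 fold change -1.05, and not called at -0.99 with upper quartile scaling), and KRT7, KRT8 and KRT19 were at -0.49, -0.77 and 0.75. The part of these marker genes in the chemokine differences was not tested.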

How the data were processed

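RNA was sequenced from 4 libraries, 2 per group. Per the labels, poly(A) RNA was converted with a kit for which no strand marking was described. Per the submitters' processing notes, HISAT2 (version 2.0.5), featureCounts (version 1.5.0-p3) and DESeq2 (version 1.20.0) were used with genome build hg38. The annotation release was not given in the sources used here. For each gene the authors deposited a normalized signal in every library, namely its read count over that library's size factor, beside gene coordinates and the gene length in bases. Columns with the results of the authors' own DESeq2 comparison (fold changes and p-values) entered no result. The sign of the fold change helped to tell which columns are the control arm, and the adjusted p-values were read once to find that every listed gene passed. Since the 6828 genes are so selected, any background share is a share of selected genes, and genes without a row were not analysed here. All values (100%, tolerance 0.01) were whole multiples of 1 read, and reads were recovered from them.

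Library columns were mapped to samples by the file heading, the direction of the authors' fold change and the replicate number. The main test was limma (version 3.58.1, R version 4.3.3) on log2(value + 1), lmFit and eBayes with trend, over 6812 genes with a mean of at least 10 (16 genes left out), with Benjamini-Hochberg adjustment. A gene was called at adjusted p below 0.05 with a log2 fold change of 1 or more in either direction. The pairs of libraries differed by more than sampling noise (chi-square per degree of freedom 3.78 and 3.92). Standard errors and p-values rest on 2 libraries per group. The fitting code was tested on simulated data with known changes. The 16 alternatives included edgeR (version 4.0.16) and DESeq2 (version 1.42.0) on the recovered reads. Sequences came from RefSeq (GRCh38.p14, 250 bases before the start) and GENCODE release 44, aligned with Biopython (version 1.88). Named genes were every listed member, USP2-AS1, the called genes of each list, at most 5 uncalled genes per list with the highest mean, and the listed neighbours of the chromosome 4 cluster. Some listed genes that this rule allows are not reported here. The members and lists were chosen with earlier results of these data known.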

Additional observations from a re-analysis of the deposited data

How the results depend on the processing

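CXCL1, CXCL2, CXCL3, CXCL5 and CXCL8 stayed lower and called under all 16 alternatives, and CCL20 under the 15 in which it could be fitted, since it had under 10 reads in the knockdown libraries. IL6 stayed lower in all 16 and was called in 12. It was lost with upper quartile scaling (-0.97), in the test against a 2-fold change (adjusted p = 1), without shctrl replicate 1 (-0.81) and without shUSP2-AS1 replicate 1 (-0.90). USP2-AS1 was lost only in the test against a 2-fold change (adjusted p = 0.0723), at an unchanged estimate. Over all genes that test called 523 lower and 541 higher, in place of 922 and 1098, and removal of the fold threshold called 3362 lower and 3449 higher. Removal of the fold threshold also gave 33 lower and 53 higher genes in the pathway lists, in place of 7 and 17. The 10-letter kappa B consensus was found in 6 of the 9 members with a promoter, in place of 7, with CXCL8 the one lost. RLE scaling moved the median of all genes by -0.118 on the log2 scale, upper quartile scaling by 0.06. With at least 10 reads required in every library the median over the remaining genes was -0.162, in place of 0.187, and 6 members were called lower.

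The labels give both groups the replicate numbers 1 and 2. The correlation of the replicate differences between the groups was -0.0397. The labels do not say whether libraries of the same number share an infection or a day, and this correlation cannot show it. With the replicate block, 7 members were called lower and 0 higher.

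All p-values rest on 2 libraries per group from 1 cell line and 1 hairpin, and only on genes of a selected list. For CCL20 and USP2-AS1, 1 to 7 reads per knockdown library limit the size of the fold change but leave the groups apart. Of IL1A, IL1B and LIF, which have no row, nothing can be said here.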
